A study of Mus musculus with 4 samples.

Results

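This section describes 808 cells of MC38 tumours with the highest combined level of Chac1, Ddit3 and Trib3, called the high-scoring cells here. They were chosen from 16143 barcodes that held at least 5000 unique molecular identifiers (UMIs, the counted transcript molecules) and 0 UMIs of Ptprc, Cd3e, Cd3d, Cd3g, Trac, Trbc1 and Trbc2, out of 18778 barcodes in all. The score of a cell was its UMIs of Chac1, Ddit3 and Trib3 per 10000 UMIs, and the cells at or above the pooled 95th percentile, 7.33, were taken. The other 15335 barcodes that met the same conditions served as the comparison. These barcodes are called gated cells, before and after the choice. Because the score was read from the same cells, the levels of its genes are a description, and no test was made on them.

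The tumours came from MC38, a mouse colon carcinoma line, and their hosts were either wild-type or FOXP3 humanized mice. Mice were 10 weeks old, and tumours were collected on day 20 without a stated treatment. A Percoll step to collect infiltrating immune cells came before capture of single cells in droplets. Each genotype had 1 cDNA library, so genotype, mouse and library cannot be told apart, and every interval below is a 95% interval that covers counting error only. The labels do not say how many mice entered a library or which part of the FOXP3 gene was humanized.

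The integrated stress response starts from kinases that phosphorylate the translation factor eIF2 when amino acids, haem or protein folding in the endoplasmic reticulum fail, or when double-stranded RNA appears. General translation then falls while the transcription factor ATF4 is made from its messenger RNA, and ATF4 switches on genes for amino acid synthesis, amino acid uptake and tRNA charging. Ddit3 encodes CHOP, a transcription factor of prolonged stress, which is also fed by the unfolded protein response of the endoplasmic reticulum. Chac1 encodes a gamma-glutamyl cyclotransferase that degrades glutathione, and Trib3 encodes a pseudokinase that restrains ATF4 and AKT.

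The 250 bases before the annotated start are shown for the genes of the score and for Herpud1 and Hspa5, which stood out among the endoplasmic reticulum genes. The sequences are from RefSeq promoters of build GRCm38.p6, read along the gene's strand. Capitals mark the C/EBP-ATF composite letters TGATGNAA, or in Hspa5 the endoplasmic reticulum stress letters CCAAT and CCACG with any 9 bases between them, both searched on both strands. Chac1 lies on the plus strand (chr2:119350992-119351241), Ddit3 on the plus strand (chr10:127290543-127290792), Trib3 on the minus strand (chr2:152344061-152344310), Herpud1 on the plus strand (chr8:94386179-94386428) and Hspa5 on the plus strand (chr2:34771840-34772089).
Chac1: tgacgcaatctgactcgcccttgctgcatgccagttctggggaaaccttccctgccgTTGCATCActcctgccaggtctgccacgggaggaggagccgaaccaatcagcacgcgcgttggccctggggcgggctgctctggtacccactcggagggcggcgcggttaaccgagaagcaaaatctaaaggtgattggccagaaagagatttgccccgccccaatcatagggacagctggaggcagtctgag
Ddit3: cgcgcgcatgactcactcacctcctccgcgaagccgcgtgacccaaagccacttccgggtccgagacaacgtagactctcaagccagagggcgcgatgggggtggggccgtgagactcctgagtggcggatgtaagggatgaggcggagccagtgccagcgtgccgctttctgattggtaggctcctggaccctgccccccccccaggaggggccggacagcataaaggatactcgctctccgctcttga
Trib3: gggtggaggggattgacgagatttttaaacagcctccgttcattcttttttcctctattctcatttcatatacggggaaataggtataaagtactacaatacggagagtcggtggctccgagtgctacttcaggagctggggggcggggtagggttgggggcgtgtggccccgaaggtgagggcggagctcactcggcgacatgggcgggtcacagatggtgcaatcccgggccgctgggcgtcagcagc
Herpud1: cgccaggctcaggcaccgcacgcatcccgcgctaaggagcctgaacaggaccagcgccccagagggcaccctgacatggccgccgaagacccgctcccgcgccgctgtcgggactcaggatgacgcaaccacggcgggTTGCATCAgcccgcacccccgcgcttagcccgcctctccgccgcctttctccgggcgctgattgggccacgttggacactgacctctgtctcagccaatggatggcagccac
Hspa5: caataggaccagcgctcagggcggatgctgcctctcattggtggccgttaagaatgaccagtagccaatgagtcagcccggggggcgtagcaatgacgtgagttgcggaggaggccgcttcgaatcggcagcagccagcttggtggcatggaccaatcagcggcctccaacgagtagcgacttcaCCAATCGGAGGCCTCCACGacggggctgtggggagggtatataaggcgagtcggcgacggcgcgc

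The composite letters stood in the Chac1 window from position -193 and in the Herpud1 window from position -112, counted from the start of transcription, and in 3.53% of the 27025 first-listed promoter windows of all genes. The endoplasmic reticulum stress letters stood in the Hspa5 window from position -65 and in 0.122% of all windows. None of the letters searched was in the Ddit3 or Trib3 window, which says only that these letters are not in these bases. The cyclic AMP response letters TGACGTCA were in none of the 5 printed windows and in 1.62% of all windows. Windows of other genes were searched too. Those of Atf4, Slc3a2, Gdf15, Ddit4 and Sqstm1, all called higher below, held none of the letters. That of Ppp1r15a, also called higher, held only the cyclic AMP response letters, from position -12. The composite letters also stood in the windows of Asns, Atf3 and Aars, which were not called. The letters thus did not separate called from uncalled genes.

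The high-scoring cells numbered 339 of 6606 in the wild-type library, 5.13% (4.61 to 5.69%), and 469 of 9537 in the humanized library, 4.92% (4.49 to 5.37%). The log2 ratio of the shares, humanized over wild-type, was -0.06 (-0.26 to 0.13). No difference was detectable at this threshold and number of cells. Taken at the 99th percentile instead, 52 wild-type and 110 humanized cells were left and the log2 ratio was 0.55. With every cell thinned to 5000 UMIs before scoring, 618 and 757 cells were chosen and it was -0.24. No interval was computed for these alternatives. Their directions were opposite, so the direction of the ratio depended on how the cells were chosen. Along its range the score had no gap at the threshold. It ran from 0 in 2311 cells to 43.4, with a median of 2.09, and 548 cells lay within 10% of the threshold, 240 inside and 308 outside. The cells were thus cut from a range of values, and at the few UMIs behind each score a separate group could not be told from its upper end.

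**Figure D1:**
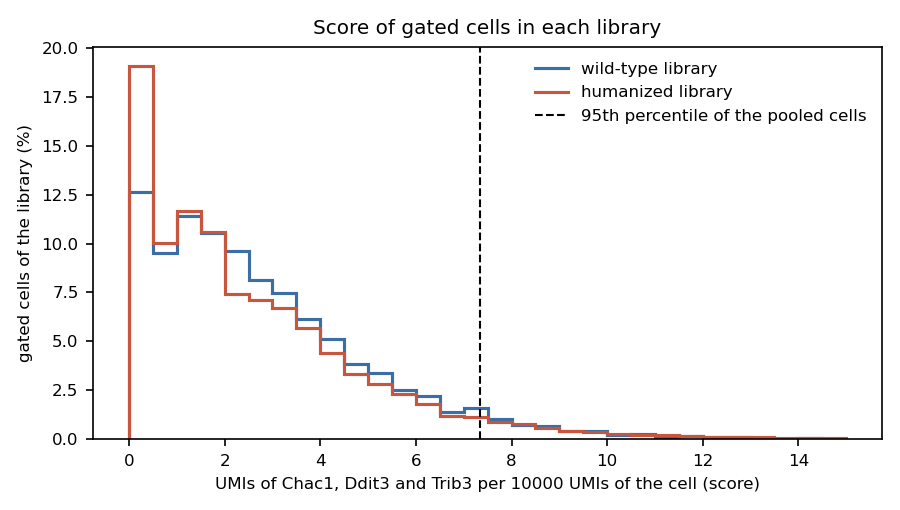
Score of gated cells, as UMIs of Chac1, Ddit3 and Trib3 per 10000 UMIs (horizontal axis, drawn up to 15), against the percentage of the gated cells of each library (vertical axis). The dashed line is the pooled 95th percentile at 7.33, and neither library shows a gap there, with 10.0% of wild-type and 17.3% of humanized cells at a score of 0.

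The high-scoring cells rest on few molecules. The median high-scoring cell held 11 UMIs of the 3 genes in the wild-type library and 10 in the humanized one, with a lowest value of 4 in each. The high-scoring cells were also shallower than the others, with a median of 12971 against 16999 UMIs in the wild-type and 10290 against 12590 in the humanized library. The part of depth in the results below was not tested, except where values within ranges of depth are given. The 50 cells just inside the threshold in the wild-type library had 613 CPM (UMIs of a gene summed over a group of cells, scaled to the total of that group) of Atf4 and the 50 just outside also 613. In the humanized library these values were 576 and 512 CPM. When the UMIs of each cell were split at random and the score was read from 1 side, 62.1% of the wild-type and 63.2% of the humanized cells so chosen were among the high-scoring cells. The high-scoring cells were chosen on all UMIs, those of that side included, so part of this overlap is built in. Cells chosen from the separate sides were not compared.

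The genes of the score differed as the choice required. Chac1 was at 171 CPM (159 to 183) in the high-scoring cells and 45.1 in the others of the wild-type library, and at 212 (200 to 224) against 45.3 in the humanized library. Ddit3 was at 488 against 129 CPM and at 492 against 114 CPM. Trib3 was at 262 against 77.3 CPM and at 273 against 64.4 CPM. With the score read from one side of the split and levels from the other, the log2 ratios of Chac1, Ddit3 and Trib3 were 1.41, 1.33 and 1.22 in wild-type cells and 1.70, 1.51 and 1.46 in those of the humanized library. Atf4 had 0.72 and 0.83 in the same way.

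All 3 genes were seen together in 50.1% of the high-scoring wild-type and 52.2% of the high-scoring humanized cells, and in 23.9% and 16.6% of the other cells. A single gene alone gave the score in 15.3% and 11.5% of the high-scoring cells. Ddit3 supplied 2431 of the 4588 UMIs counted in the score of these cells in the wild-type library and 2683 of 5325 in the humanized one. For background from free RNA, barcodes with at least 3 UMIs of the T cell genes and under 5000 UMIs were examined. They held 0 UMIs of Chac1 in 96 wild-type barcodes, which allows up to 15.9 CPM, and 1 UMI in 153 humanized barcodes, or 3.69 CPM. Ddit3 was at 58.5 and 70.1 CPM and Trib3 at 15.9 and 11.1 CPM in these barcodes, whose median depths were 1794 and 1574 UMIs.

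The label of tumour cells was checked against markers. Vim, an intermediate filament gene that MC38 cells share with mesenchymal cells, was at 2621 and 3941 CPM in the high-scoring cells and at 2879 and 4093 CPM in the others. Epithelial genes were at or near 0. Krt18, Epcam, Cldn4 and Cldn7 had 0 UMIs in the high-scoring cells of both libraries, and Krt8 had 1 UMI in wild-type cells and 3 in those of the humanized library. Adam2 and Apobec1, also on the marker list, were at 74.2 and 162 CPM in the wild-type and 24.9 and 75.2 CPM in the humanized library, below the other cells in both. Leukocyte, endothelial and red cell genes were scarce. Barcodes with UMIs of Ptprc, a leukocyte gene, had been removed beforehand, so for leukocyte genes this was partly fixed in advance. The 12 macrophage and monocyte markers summed to 10.8 and 17.6 CPM in the high-scoring cells, with 5 at 0 in each library, against 9.18 and 8.86 CPM in the other cells. Of 8 endothelial markers 3 and 2 were at 0, with sums of 13.84 and 11.4 CPM against 16.3 and 13.5 CPM. The 8 neutrophil markers summed to 0.803 and 1.83 CPM against 0.625 and 0.899 CPM, and the 12 NK, B and dendritic markers to 5.62 and 9.54 CPM against 16.9 and 7.56 CPM. The part of these markers in the results was not tested. The fibroblast list summed to 161 and 173 CPM in the high-scoring cells and to 167 and 193 CPM in the others. The T cell markers outside the rule summed to 60.8 and 80.0 CPM against 56.8 and 78.1 CPM in the others. Of the 12 listed in both libraries, 8 and 4 had 0 UMIs in the high-scoring cells. Only 1 of them reached 20 CPM over all gated cells of each library. Epithelial markers thus do not identify the cells as tumour cells, and they are named by their score.

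Atf4 and a few of its target genes were higher in the high-scoring cells. Among 4715 genes with at least 20 CPM over all gated cells of each library, 21 were at least 1.5-fold higher in the high-scoring cells of both libraries, 0.445% of the genes compared, and 12 were at least 1.5-fold lower, 0.255%. The median log2 ratio over all these genes was 0.00 in wild-type cells and 0.01 in those of the humanized library. Over 6 lists of ATF4 target genes, 48 of 74 genes could be compared, 6 were past 1.5-fold higher, 0 were past it lower, and 44 were above 0 in both libraries. Of all 4715 genes compared, 1770 were above 0 in both libraries and 1688 below 0 in both. Atf4 itself is on these lists, is counted with the ATF4 target genes throughout, and is among the 6. The 48 genes had median log2 ratios of 0.30 and 0.37. These counts share cells and UMIs with the score and support no further claim about the lists.

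Atf4 itself was at 631 CPM in the high-scoring and 365 CPM in the other wild-type cells, and at 643 against 359 CPM in the humanized library. Its log2 ratio was 0.79 (0.74 to 0.84) and 0.84 (0.79 to 0.89). All 7 transcription factors compared were above 0 in both libraries, and Atf4 alone was past 1.5-fold in both. Atf3, an early stress repressor, had log2 ratios of 0.52 and 0.74. Cebpb, whose protein pairs with ATF4, had 0.53 and 0.51, and Atf5, another translationally controlled factor, 0.27 and 0.58. The genes upstream of ATF4 differed little. Of 11 genes of eIF2, its exchange factor eIF2B and their regulators, 0 were past 1.5-fold and the median log2 ratios were 0.08 and 0.20. The largest wild-type value among them was 0.49 for Impact, an inhibitor of the amino acid sensor GCN2, whose humanized value was 0.20.

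Feedback genes and an autophagy receptor were also higher. Gdf15, a secreted stress hormone that signals to the hindbrain, was at 66.2 against 32.5 CPM in the wild-type and 75.2 against 29.9 CPM in the humanized library, log2 ratios of 1.03 (0.86 to 1.19) and 1.33 (1.18 to 1.48). Ppp1r15a, which encodes GADD34, the phosphatase subunit that reverses eIF2 phosphorylation, had log2 ratios of 0.83 and 0.96. Ddit4, an inhibitor of mTORC1, had 0.88 and 0.61. Sqstm1, the autophagy receptor p62, was at 1174 against 730 CPM and at 1319 against 708 CPM. Together 3 of 5 feedback genes and 1 of 6 death and autophagy genes were past 1.5-fold in both libraries. Sesn2, which senses leucine, was under the 20 CPM floor and had log2 ratios of 1.05 (0.73 to 1.36) and 0.70 (0.29 to 1.08).

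Of the amino acid genes, Slc3a2 alone was past the fold. None of 11 synthesis genes was past 1.5-fold in both libraries, although all 11 were above 0 in both, with medians of 0.22 and 0.31. Asns, asparagine synthetase, was at 259 against 206 CPM in the wild-type and 204 against 164 CPM in the humanized library, log2 ratios of 0.33 and 0.31. With the score and the levels read from separate UMIs, Asns had log2 ratios of 0.09 (-0.04 to 0.21) and 0.40 (0.28 to 0.52), so the wild-type difference was not detectable in that reading. Psat1, of serine synthesis, had 0.02 (-0.09 to 0.13) and 0.07 (-0.03 to 0.17). The 5 transporters had medians of 0.43 and 0.62. Among them Slc3a2, the heavy chain shared by several amino acid exchangers, was past 1.5-fold at 0.63 and 0.95. Slc7a5, its large neutral amino acid partner, had 0.39 and 0.62, and Slc1a5, a glutamine carrier, -0.01 and 0.21. For the 14 genes of tRNA charging the medians were 0.21 and 0.31 with 0 past the fold, and for 7 synthetase genes not counted as ATF4 targets they were 0.03 and 0.05.

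**Figure D2:**
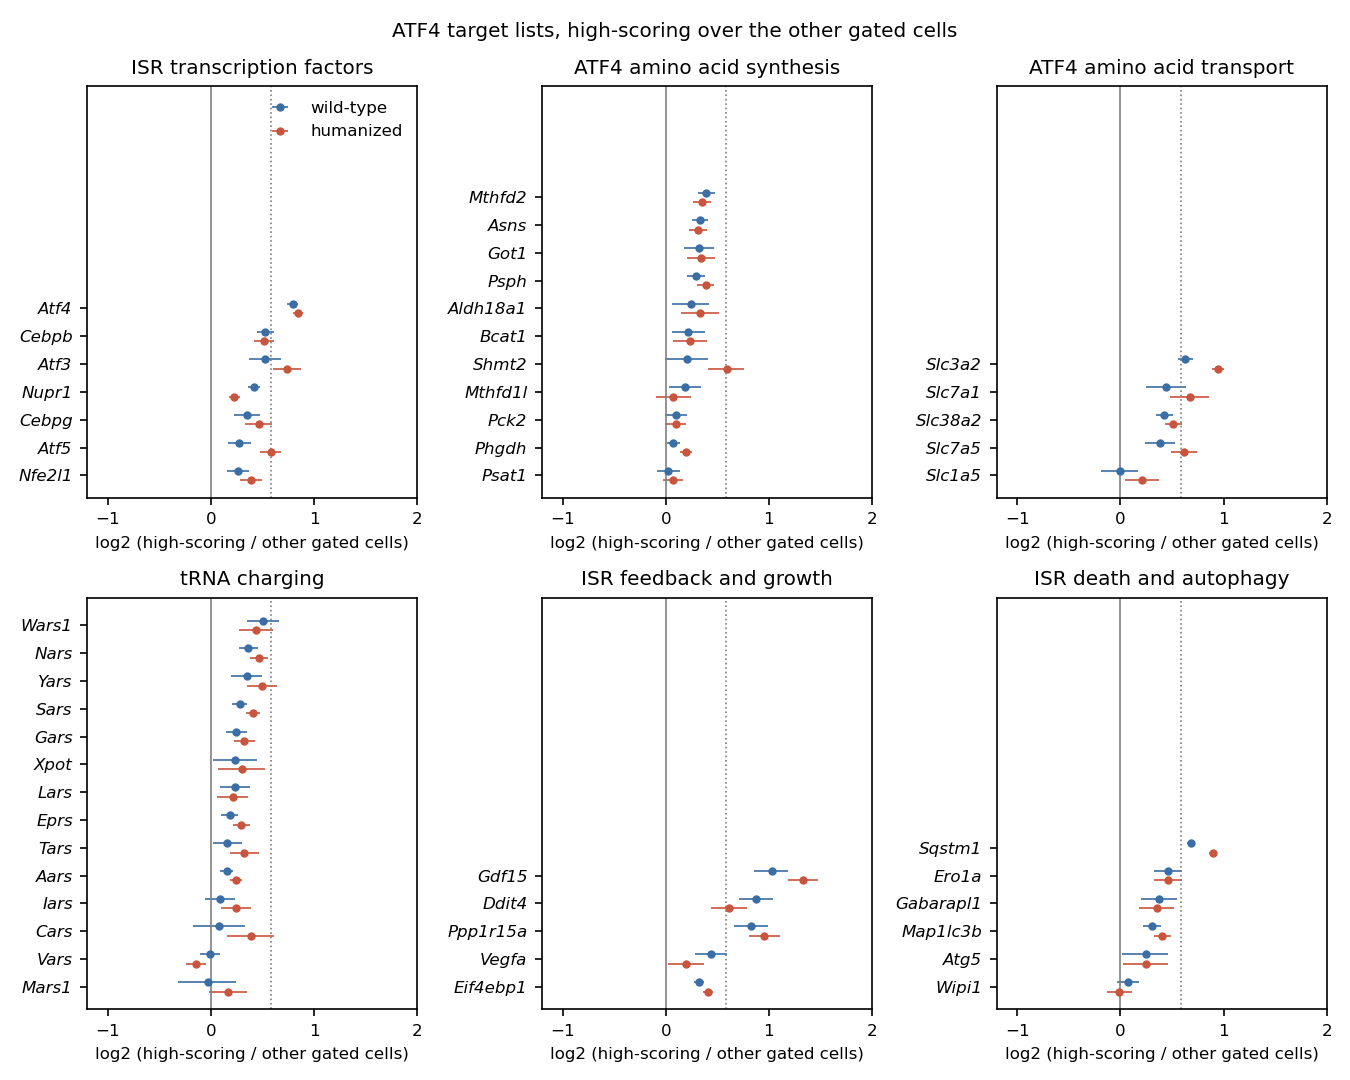
Log2 ratio of CPM in high-scoring over other gated cells for each ATF4 target gene compared, by role, in the wild-type (blue) and humanized (red) library. Points carry 95% counting intervals and the dotted line is 1.5-fold. Only Atf4, which is on the lists itself, Slc3a2, Gdf15, Ddit4, Ppp1r15a and Sqstm1 lie past that line in both libraries.

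Genes of protein folding in the endoplasmic reticulum were higher as a group of 4 among 21. Hspa5, the chaperone BiP, was at 815 against 470 CPM in the wild-type and 1216 against 501 CPM in the humanized library, log2 ratios of 0.79 (0.75 to 0.84) and 1.28 (1.24 to 1.32). With Ddit3 left out of the score the wild-type value was 0.05, and in cells over 20000 UMIs the smaller value of the libraries was 0.31, so the call was lost in both. Herpud1, a component of endoplasmic reticulum associated degradation, had log2 ratios of 0.98 and 1.08. Xbp1, the factor spliced by IRE1, had 0.71 and 0.80, and Sdf2l1, a chaperone cofactor, 0.59 and 0.94. The windows of Herpud1 and Hspa5 printed above hold the letters searched, and those of Xbp1 and Sdf2l1 hold none of them. Calr and Canx, the lectin chaperones, were close to the other cells with log2 ratios of 0.16 and 0.06 in the wild-type and 0.17 and 0.20 in the humanized library. Glutathione genes did not follow Chac1. Of 6 compared, 0 were past 1.5-fold, and Chac2, its paralogue, had -0.23 (-0.73 to 0.23) and -0.15 (-0.63 to 0.30) under the floor.

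Among all genes, Car6 had the highest ranked difference after the score genes. It encodes a secreted carbonic anhydrase and was at 58.8 against 28.2 CPM and at 45.1 against 20.0 CPM, log2 ratios of 1.06 and 1.18. In cells of at most 20000 UMIs, which held 706 of the high-scoring cells, the smaller value of the libraries was 0.52, under 1.5-fold, and in cells over 20000 UMIs it was 1.39. Gadd45a, a growth arrest gene, had 0.98 and 0.97. Acot2, a mitochondrial acyl-CoA thioesterase, had 0.94 and 1.02. Some host genes of small nucleolar RNAs were past 1.5-fold and others were not, a group singled out after its values were seen. Snhg16 had log2 ratios of 0.88 and 1.13, Snhg17 0.71 and 0.92, Snhg1 0.67 and 0.78, and Snhg15 0.66 and 0.80, while Zfas1 had 0.46 and 0.56 and Gas5 0.19 and 0.38. The genes most like the score over gated cells, by the lower of the Spearman coefficients of the libraries, were Atf4 at 0.33, Sqstm1 at 0.29, Herpud1 at 0.24, Eif4ebp1 at 0.23, Slc3a2 at 0.22, Gadd45a at 0.21, Gdf15 at 0.20 and Hspa5 at 0.20. All come from the same cells and depths as the score, over 6606 and 9537 cells.

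Genes of cell division and a chemokine were lower. Of 17 genes of G2 and mitosis, 7 were past 1.5-fold lower in both libraries and all 17 were below 0 in both, with median log2 ratios of -0.61 and -0.57. Over all 4715 genes compared, 1688 were below 0 in both. Ccnb1, cyclin B1, was at 27.9 against 50.3 CPM in the wild-type and 32.1 against 55.8 CPM in the humanized library. Plk1, a mitotic kinase, had log2 ratios of -0.80 and -0.97, Cenpf, of the kinetochore, -0.92 and -0.74, and Mki67, the proliferation antigen, -0.60 and -0.61. The other genes of this group past the fold were Ube2c, Cenpe and Aurka, with wild-type values of -0.88, -0.66 and -0.61 and humanized values of -0.72, -0.95 and -0.77. Outside the list, Cdkn3, a phosphatase of cyclin-dependent kinases, had -0.81 and -0.65, Mxd3, a MAX partner, had -0.70 and -1.29, and Dkk2, a Wnt antagonist, -0.67 and -0.68. Of 16 S phase genes 0 were past the fold, with medians of -0.19 and -0.27. Ccl2, a monocyte-attracting chemokine, was at 39.7 against 116 CPM and at 104 against 194 CPM, log2 ratios of -1.55 and -0.90. Cxcl1, a neutrophil-attracting chemokine, had -0.61 and -1.38. The lower calls differed between ranges of depth. Among cells of at most 20000 UMIs 3 genes were past 1.5-fold lower, 1 of them among the 12, and among cells over 20000 UMIs 30 were, 8 of them among the 12. The smaller value for Ccl2 was -1.04 in the first range and -0.53 in the second.

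Along the score the levels moved by steps through the whole range, and not at the threshold alone. Atf4 was at 254 CPM up to the 25th percentile of the pooled score, 390 CPM between the 50th and 75th percentile, 552 CPM between the 90th and 95th, and 661 CPM in the top 1% of the wild-type library. The humanized values were 268, 392, 519 and 803 CPM. Asns did not keep pace. In the wild-type library it was at 172, 212, 255 and 184 CPM in the same ranges, and in the humanized library at 131, 179, 206 and 232 CPM. Hspa5 was highest at the top, at 1017 CPM in the wild-type and 1976 CPM in the humanized library, against 389 and 402 CPM in the lowest range. The top 1% held 52 wild-type and 110 humanized cells.

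**Figure D3:**
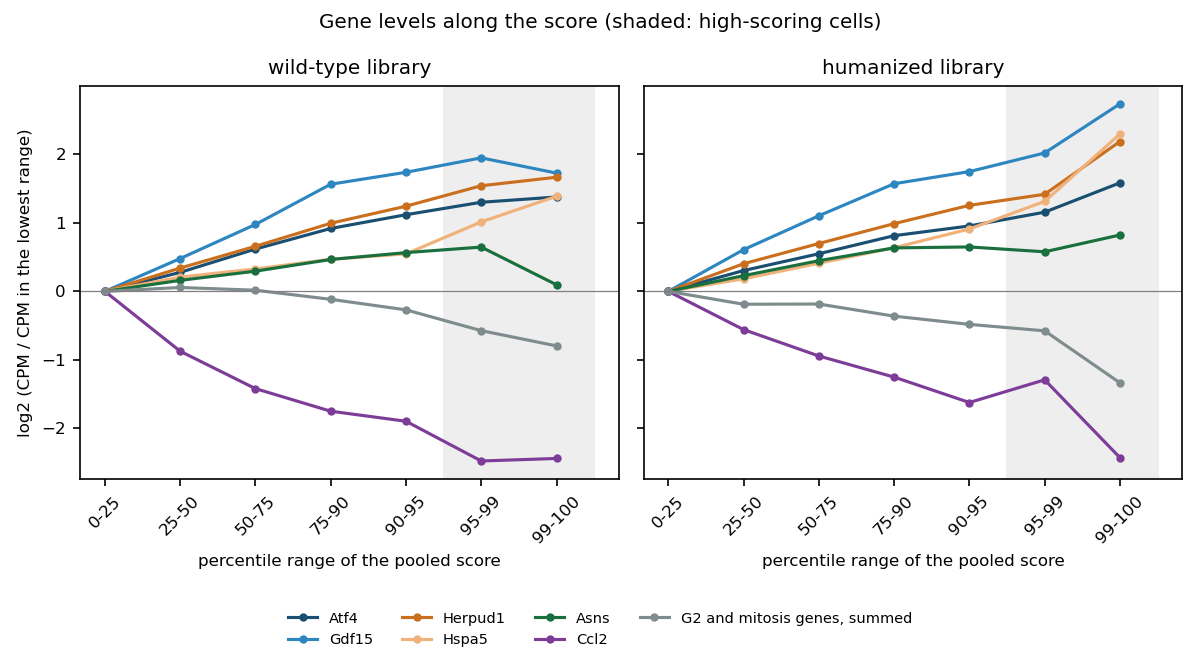
Log2 of the CPM of each gene, or of the summed genes of G2 and mitosis, over its CPM in the lowest range, against percentile ranges of the pooled score in each library. The shaded ranges are the high-scoring cells. Atf4, Gdf15, Herpud1 and Hspa5 climb from range to range up to the 95th percentile, while Ccl2 falls.

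The 3 genes of the score did not rank the same cells. Over gated cells, the Spearman coefficient of Chac1 with Trib3 was 0.32 in wild-type cells and 0.33 in those of the humanized library. The coefficient of Chac1 with Ddit3 was -0.01 and 0.03, and that of Ddit3 with Trib3 was 0.09 and 0.13. Cells share a library and differ in depth, and counts are sparse, so these are descriptions only. Each gene was therefore also read in cells chosen by the other pair of genes. Cells high for Chac1 and Trib3 had Ddit3 at 141 against 143 CPM in the wild-type, a log2 ratio of -0.01 (-0.11 to 0.08), and at 162 against 127 CPM in the humanized library, 0.35 (0.25 to 0.44). Cells high for Ddit3 and Trib3 had Chac1 at log2 ratios of 0.60 and 0.78, and cells high for Chac1 and Ddit3 had Trib3 at 0.57 and 0.91.

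The upper 5% of cells by Ddit3 alone and by Chac1 with Trib3 were then set side by side, a split chosen after these values were seen. There were 357 and 451 Ddit3-high cells and 334 and 474 Chac1 and Trib3-high cells. Only 15 wild-type and 34 humanized cells were in both, 4.20% and 7.54% of the Ddit3-high cells, where 5.06% and 4.97% of all gated cells were Chac1 and Trib3-high. The shared cells were 4.49% and 7.17% of the Chac1 and Trib3-high cells. Of the high-scoring cells, 177 and 221 were Ddit3-high, 151 and 246 were Chac1 and Trib3-high, and 26 and 36 were neither. Median depth was 12479 and 9609 UMIs in Ddit3-high cells and 16840 and 10982 UMIs in Chac1 and Trib3-high cells.

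Genes of amino acid supply were higher in Chac1 and Trib3-high cells. Against all other gated cells, 44 genes were at least 1.5-fold higher in both libraries, 0.933%, and 12 lower, 0.255%. The higher genes held 6 of 11 synthesis genes, all 5 transporters, 4 of 14 tRNA charging genes and 4 of 5 feedback genes. Asns was at 346 against 201 CPM in the wild-type and 257 against 161 CPM in the humanized library. Psph, the last enzyme of serine synthesis, had log2 ratios of 0.90 and 0.87, Mthfd2, of mitochondrial folate metabolism, 0.87 and 0.73, and Slc7a5 0.97 and 0.94. Gdf15 had 1.21 and 1.55 and Atf4 0.94 and 0.83. Mt1 and Mt2, the metal-binding metallothioneins, were lower, Mt1 at 2780 against 5104 CPM and at 2934 against 4782 CPM.

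In Ddit3-high cells both metallothionein genes were higher, with 3 of 21 endoplasmic reticulum genes and 1 of 14 heat shock genes. The median log2 ratio of all genes against the other gated cells was -0.11 and -0.13 for Ddit3-high and 0.10 and 0.09 for Chac1 and Trib3-high cells. Against all other gated cells 20 genes were at least 1.5-fold higher in both libraries, 0.424%, and 119 lower, 2.52%. Mt1 was at 9581 against 4801 CPM in the wild-type and 9623 against 4513 CPM in the humanized library, log2 ratios of 1.00 and 1.09, and Mt2 had 0.94 and 1.01. Hspa5 had 0.82 and 1.01, and Manf, a secreted endoplasmic reticulum stress factor, 0.64 and 0.59. Dnajb1, a heat shock cochaperone, had 0.67 and 0.62, and Gpnmb, a membrane glycoprotein of lysosomal stress, 1.13 and 1.04. Of 11 synthesis genes 1 was past 1.5-fold lower in both libraries. Their median log2 ratio was -0.51 and -0.36, with Asns at -0.52 and -0.27, Psph at -0.71 and -0.58, and Psat1 at -0.97 and -0.61. Of 12 sterol synthesis genes 10 were lower, with Hmgcs1, which feeds the mevalonate pathway, at -0.96 and -1.28, and 5 of 16 S phase genes were lower, with Tk1, thymidine kinase, at -1.45 in both.

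The cells high for one and not the other were compared directly. Over the 4715 genes the median log2 ratio of Ddit3-high only over Chac1 and Trib3-high only cells was -0.21 for the wild-type library and -0.23 for the humanized one, so values are given relative to that median. On that scale 161 genes were at least 1.5-fold higher in Ddit3-high cells of both libraries, 3.41%, and 146 in Chac1 and Trib3-high cells, 3.10%. Without the centring these counts were 49, 1.04%, and 470, 9.97%. Mt1 and Mt2 were the farthest toward Ddit3-high cells, at 2.10 and 1.91 in the wild-type and 2.08 and 1.95 in the humanized library. Gadd45b, a stress signalling gene, had 1.48 and 1.35, Dnajb1 1.44 and 1.35, and Hsph1, a cytosolic chaperone, 1.43 and 1.10. Toward Chac1 and Trib3-high cells lay Psph at -1.38 and -1.27, Slc1a5 at -1.22 and -1.34, Slc7a5 at -1.32 and -1.06, Fdps, of isoprenoid synthesis, at -1.69 and -1.07, Tk1 at -1.71 and -1.12, and Plaur, the urokinase receptor, at -1.09 and -1.40.

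By list, 10 of 11 amino acid synthesis genes, 3 of 5 transporters and 8 of 12 sterol genes were on the Chac1 and Trib3 side, with median relative log2 ratios of -0.84 and -0.77, -0.94 and -1.06, and -0.97 and -0.95. Both metallothioneins and 6 of 14 heat shock genes were on the Ddit3 side, with medians of 2.00 and 2.01 for the first and 0.59 and 0.50 for the second. The ISR transcription factors stood near 0, at -0.05 and -0.14, and ribosomal protein genes at 0.33 and 0.35. Depth moved with this split, so it was repeated within ranges of UMIs. Among cells of at most 20000 UMIs the synthesis list was at -0.87 and -0.78 and the metallothioneins at 1.81 and 2.01. Among cells over 20000 UMIs they were at -0.66 and -0.78 and at 2.02 and 2.04, from 51 and 38 Ddit3-high only cells. Hspa5 did not hold this way in the humanized library, at 0.24 and -0.02 in the lower and upper range, against 0.86 and 0.85 in the wild-type library.

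**Figure D4:**
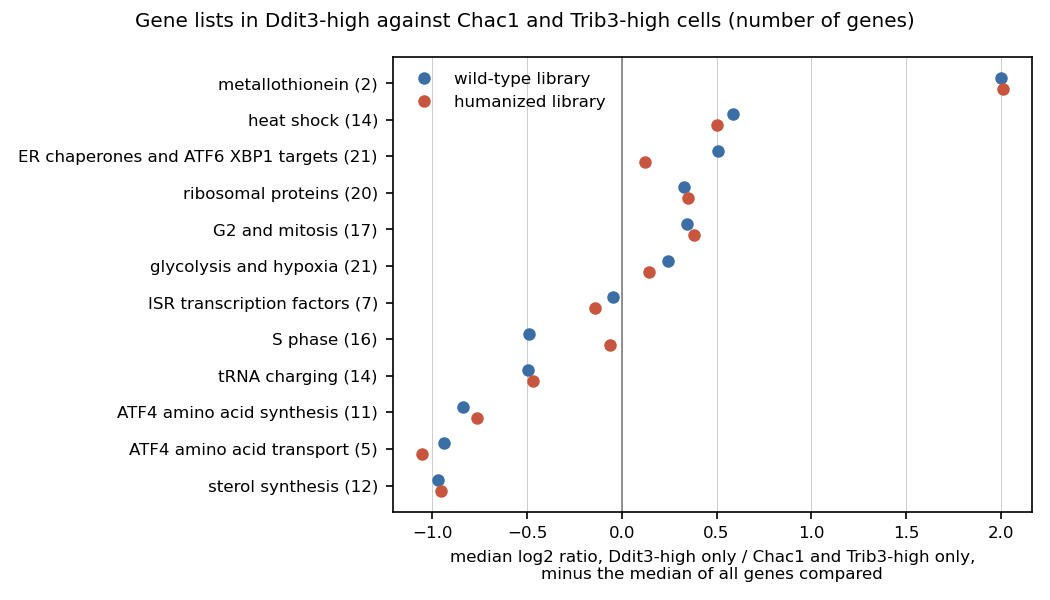
Median log2 ratio of Ddit3-high only over Chac1 and Trib3-high only cells for each gene list, minus the median of all genes compared, in the wild-type (blue) and humanized (red) library, with the number of genes in brackets. Metallothioneins lie near 2.00, and sterol synthesis, amino acid transport and amino acid synthesis between -1.06 and -0.77.

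High-scoring cells were also scored on the lists as wholes. Of them 16.5% from the wild-type library and 24.3% from the humanized one were in the upper 5% of pooled cells for amino acid transport, against 4.39% and 4.00% of the other cells. For amino acid synthesis these shares were 16.2% and 11.7% against 4.60% and 4.52%, and for endoplasmic reticulum chaperones 12.7% and 18.6% against 4.13% and 4.62%. For G2 and mitosis they were 2.65% and 2.77% against 5.51% and 4.86%. Lists of other kinds also had larger shares. NRF2 targets had 12.1% and 7.68% against 6.85% and 3.33%, and metallothioneins 10.6% and 7.68% against 4.85% and 4.76%. For p53 targets the shares were 7.96% and 9.81% against 4.58% and 4.94%. Besides G2 and mitosis, the collagen, ribosomal protein and chemokine lists had smaller shares in both libraries. Glutathione, sterol synthesis and S phase lists differed in direction between the libraries.

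Between the libraries, few genes of the high-scoring cells were higher in the humanized one. Of 4715 genes 18, 0.382%, were at least 1.5-fold higher in its high-scoring cells, and 158, 3.35%, lower. In the other cells these counts were 19, 0.403%, and 109, 2.31%. The high-scoring cells held 4984232 wild-type and 5452726 humanized UMIs, the other cells 121658102 and 132414219. Counting error was thus larger in the high-scoring cells, and its part in the different counts was not tested. The median gene was -0.10 on the log2 scale between the libraries, and with that removed the counts in high-scoring cells were 46 and 77. Of the genes past the fold in high-scoring cells, 8 higher and 66 lower were past it in the other cells too, 44.4% and 41.8% of the high-scoring calls and 42.1% and 60.6% of the others.

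Ccl2 was at 39.7 CPM in high-scoring cells of the wild-type and 104 CPM in those of the humanized library, a log2 ratio of 1.38 (1.15 to 1.62), against 0.74 (0.71 to 0.77) in the other cells. Mars1, methionyl-tRNA synthetase, had 1.03 against 0.83 in the other cells. Gadd45g, a growth arrest gene, had 0.72 (0.61 to 0.84) against 0.23 (0.21 to 0.26), and 1 cell held 11.6% of its humanized UMIs. The remaining higher genes were Ccl7 at 0.92, Sod3, extracellular superoxide dismutase, at 0.90, Ifi30, a lysosomal thiol reductase, at 0.88, Crtap, of collagen modification, at 0.77, and Dhrs1, a short-chain dehydrogenase, at 0.76. Their values in the other cells were 0.66, 0.53, 0.67, 0.43 and 0.55, so each was higher there also. Among high-scoring humanized cells 1 cell held 12.0% of the Ccl2 UMIs and 1 cell 12.2% of the Ccl7 UMIs. With the score cut at the 99th percentile, the log2 ratios of Ccl2 and Ccl7 were 0.40 and 0.16.

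Among the lower genes, Bc1, a noncoding RNA best known from neurons, was at 150.5 CPM in high-scoring wild-type and 25.3 CPM in high-scoring humanized cells, a log2 ratio of -2.57 (-2.84 to -2.31), against -1.67 (-1.72 to -1.61) in the other cells. Adam2, a metalloprotease family gene, had -1.57 against -1.73, and Apobec1, a cytidine deaminase, -1.11 against -1.45. Atp5mc2 and Atp5pb, subunits of ATP synthase, had -1.28 and -1.10 against -0.92 and -1.04. Cmss1 had -1.07 against -0.80 and Camk1d, a calcium-dependent kinase, -1.06 against -0.70. Krt16, a keratin of stressed epithelium, had -1.23 against -0.59, and 1 wild-type cell held 41.8% of its UMIs in high-scoring cells. For Camk1d and Bc1 the largest share of 1 high-scoring wild-type cell was 11.8% and 10.1%.

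**Figure D5:**
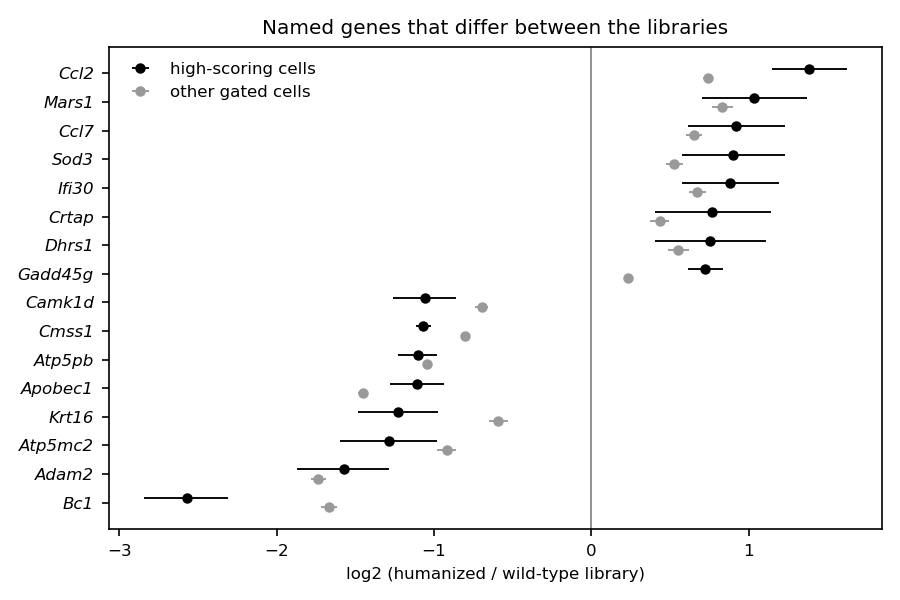
Log2 ratio of the humanized over the wild-type library for the named genes, in high-scoring cells (black) and in the other gated cells (grey), with 95% counting intervals. Each of the 16 named genes lies on the same side of 0 in both kinds of cell.

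The score genes, ATF4 target genes and chaperones were also set between the libraries. In high-scoring cells Chac1 was at 171 CPM in the wild-type and 212 CPM in the humanized library, a log2 ratio of 0.31 (0.18 to 0.44), against 0.01 (-0.05 to 0.06) in the other cells. Ddit3 had 0.01 (-0.07 to 0.09) and Atf4 was at 631 and 643 CPM. Hspa5 had a log2 ratio of 0.58 (0.52 to 0.63) in high-scoring cells against 0.09 in the others, and Slc3a2 had 0.38 (0.29 to 0.47) against 0.06, both under 1.5-fold. Of the 48 ATF4 target genes compared, 1 was past 1.5-fold higher in the humanized library, Mars1, and 0 were lower, with a median log2 ratio of -0.10 in high-scoring and -0.12 in the other cells. The sterol synthesis list had a median of 0.26 in high-scoring and 0.64 in the other cells.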

How the data were processed

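The authors deposited UMI counts, unnormalized, for each gene in each barcode. Per the file headers PISA 1.0 wrote them, and the submitters' processing notes name the build GRCm39. Aligner, annotation and cell calling were not given in the sources used here. The cDNA libraries held 134214718 wild-type and 147738781 humanized UMIs. Oligo libraries were not used. Of 26172 genes, 22649 were listed in both. The libraries share 1551 barcode names, none with equal totals. Counts were summed over cells and scaled to CPM (per total UMIs), with exact Poisson, Clopper-Pearson and conditional 95% intervals. A gene was called when at least 1.5-fold apart in both libraries, among genes with at least 20 CPM in each and without the score genes. Named genes were those of the stress lists, up to 15 each way by the smaller log2 ratio, up to 8 each way between libraries, and up to 8 most like the score. These rankings skipped sex-linked, haemoglobin, immune receptor, predicted, ribosomal protein and mitochondrial genes. Cells, lists and rules were chosen with earlier results of these data known. No doublet caller was run, and cells over 20000 UMIs were examined apart. Of the gated cells 0 held over 10% mitochondrial UMIs. No test was made, each genotype having 1 library. Alternatives changed the percentile, UMI minimum, score genes, scaling, floor and fold. Scripts used Python 3.11.15, NumPy 2.4.6, SciPy 1.17.1 and pandas 2.3.3 and were tested on simulated data. Promoter windows came from RefSeq, and their build differs from that of the files.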

Additional observations from a re-analysis of the deposited data

How the results depend on the processing

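Of the 21 genes higher and 12 lower in high-scoring cells, and of the 6 ATF4 target genes higher, the counts depended on where the threshold lay. At the 90th percentile 11 were higher and 3 lower, and at the 99th 72 and 65. With every cell thinned to 5000 UMIs before scoring they were 8 and 1, with 2 ATF4 target genes. Thinning also took 1375 cells in place of 808, so the looser cut and the change of depth cannot be told apart here. Without Ddit3 in the score 44 were higher, 21 of them ATF4 target genes. Without Chac1 22 were lower. Without Trib3 25 were lower and 2 ATF4 target genes were higher. Lower genes numbered 3 in cells of at most 20000 UMIs, 30 in cells over 20000 UMIs and 7 by the mean over cells. A floor of 5 CPM gave 44 higher, 36 lower and 10 ATF4 target genes, no floor 580, 334 and 12, and a 2-fold limit 2, 0 and 1. The log2 ratio of shares was 0.55 at the 99th percentile. Between libraries, 18 higher and 158 lower genes became 11 higher at the 90th percentile, 275 and 567 at the 99th, 46 and 77 by median scaling, 99 and 646 at 5 CPM, 949 and 2714 without a floor, and 2 and 12 at 2-fold. For Ddit3-high only against Chac1 and Trib3-high only cells, alternatives chosen after seeing the data turned 49 and 470 into 86 and 725 at the 99th percentile, 161 and 146 by median scaling, 151 and 826 at 5 CPM and 6 and 54 at 2-fold, and 49 into 76 in cells over 20000 UMIs. Crtap, at 0.77 between libraries, was -0.041 in cells over 20000 UMIs. The cause was not tested in any of these. Among the other named genes under 17 alternatives, Cxcl1 at the 99th percentile had opposite directions in the libraries, with 37.5 CPM in the top 1% of wild-type cells. Named genes of high-scoring cells kept the fold limit in 327 comparisons and missed it in 132. That limit was 2-fold in the 2-fold alternative and 1.5-fold in the others. Part of the 327 was fixed in advance. The limit of 10% mitochondrial UMIs removed no cell, and a change of floor left the ratio of a named gene as it was. No paired analysis was possible because each genotype has 1 library. Depth limits genes under the floor, and a score that rests on 4 to 49 UMIs per cell.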
